A study of Mus musculus with 24 samples.

Results

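The genes described here are 10 members of the bone morphogenetic protein (BMP) and transforming growth factor beta (TGF-beta) signalling pathways: the ligand Bmp4, the receptors Acvrl1, Bmpr2 and Eng, the signal transducer Smad1, the inhibitory Smads Smad6 and Smad7, and the target genes Id1, Atoh8 and Tmem100. They were taken by gene symbol from the 45468 genes of the count tables, and all 10 passed the filter on low counts. The libraries hold polyadenylated RNA of mouse brain cells that were depleted of CD45-positive leukocytes and then captured on CD31 beads, a selection for endothelial cells. There were 8 groups of 3 libraries, formed by 2 genotypes at 4 stages: embryonic stage E15.5, postnatal day 5 (P5), postnatal day 9 (P9) and adult. Every animal was Sox17flox/flox and was exposed to tamoxifen, the controls included. Sox17iECKO animals (KO) carried Cdh5(PAC)-Cre-ERT2, a recombinase that an endothelial promoter drives and tamoxifen activates, so that the gene of the transcription factor Sox17 is removed in endothelial cells. Their controls, labelled wt, lacked the recombinase. For E15.5, tamoxifen went to the dams, 1 mg on pregnancy day 11.5 and again on day 13.5. P5 and P9 pups received 100 µg on postnatal day 1. Adults received 4 injections of 1.5 mg at an age of 6 weeks, given every other day, and brains were taken 1 week later. The labels call the 3 libraries of a group independent biological replicates.

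BMP and TGF-beta ligands bind pairs of type I and type II receptor kinases, which phosphorylate receptor Smads that enter the nucleus with the common Smad4 and set the transcription of target genes. Endothelial cells use a version of the pathway built on the type I receptor Acvrl1, the type II receptor Bmpr2 and the coreceptor endoglin (Eng), which signals through Smad1 and its relatives, while Smad6 and Smad7 are induced by the pathway and feed back on it. Inherited loss of endoglin or of Acvrl1 causes hereditary haemorrhagic telangiectasia, a disease of arteriovenous malformations that also form in the brain.

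Depth was 12301779 to 19830600 counts per library, at which 3 counts correspond to 0.151 to 0.244 CPM, the unit of counts scaled to a common library size that is used here for all levels. Sox17 itself served as the check of the labels: its level in KO libraries was 10.1% of wt at E15.5, 6.01% at P5, 7.01% at P9 and 17.8% in adults, and no KO library overlapped a wt library of its stage. All 13 endothelial identity genes had counts in every group, and their summed level was 5186 to 6585 CPM at E15.5 and 12423 to 27944 CPM at the other stages. Markers of other brain cells were present. Neuron markers summed to 1492 to 2084 CPM at E15.5 and to at most 671 CPM later, and oligodendrocyte-lineage markers reached 13478 to 20775 CPM in adults. At E15.5 the libraries numbered 3 of both genotypes stood apart in pericyte markers (654 CPM in wt and 749 CPM in KO, against 1380 to 1947 CPM in the other 4 libraries) and in choroid plexus markers (53.7 and 49 CPM against 272 to 559 CPM). E15.5 and P5 brains were dissociated with one kit and P9 and adult brains with another. Kit and age therefore cannot be told apart in any comparison of E15.5 or P5 with P9 or adult.

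Levels of the genes can be compared with each other only per length. In wt at P9, Eng stood first at 755 ± 59.1 CPM per kb (SD, n = 3), followed by Id1 at 181 ± 11, Acvrl1 at 112 ± 2.47 and Smad1 at 20.6 ± 0.441. Smad7 (15.7 ± 2.25), Tmem100 (14.2 ± 2.7) and Bmpr2 (12.1 ± 0.559) followed within their spreads, then Smad6 at 8.99 ± 0.537 and Bmp4 at 6.58 ± 0.829, and Atoh8 was lowest at 1.42 ± 0.099. Eng, Id1 and Acvrl1 kept the first 3 places in each of the 8 groups. Tmem100 took the 6th place in wt at P9 and the 10th in KO at P9, where its level was 2.86 ± 0.712 CPM per kb.

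**Figure D1:**
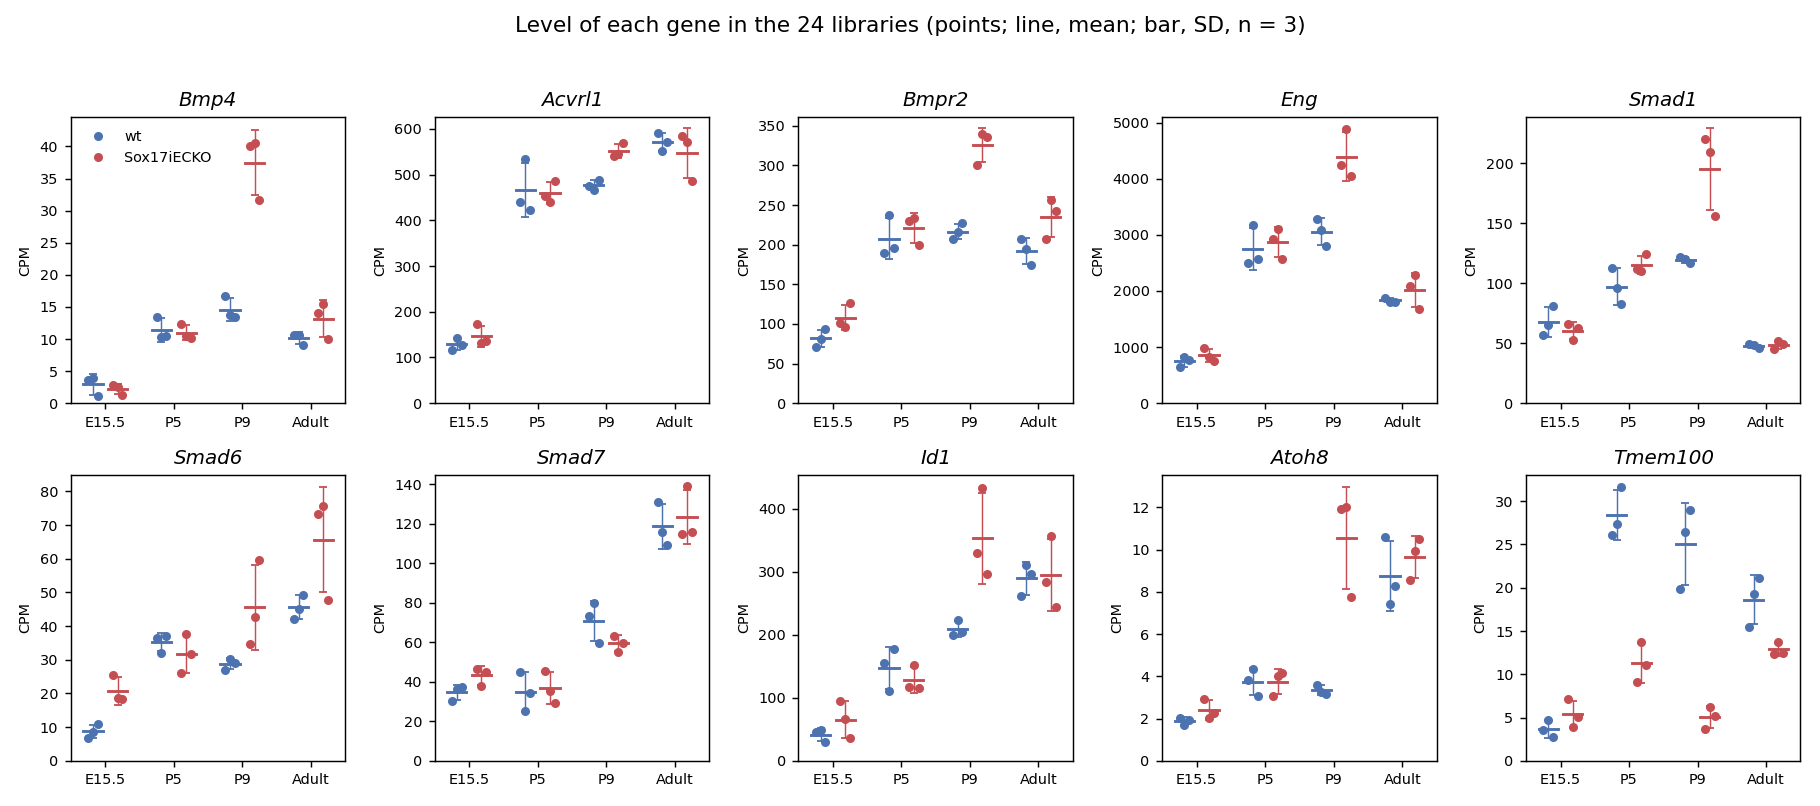
CPM (vertical axes, linear, from 0) of each of the 10 genes in the 24 libraries, by stage and genotype, with the mean as a line and the SD as a bar (n = 3). At P9 the KO libraries of Bmp4, Acvrl1, Bmpr2, Eng, Smad1, Smad6, Id1 and Atoh8 lie above all wt libraries, while Tmem100 lies below them at P5, P9 and in adults. At P9 the groups did not overlap for 40.7% of tested genes.

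Control brains, which lacked the recombinase, show the course of the genes without the deletion. Tamoxifen schedule or time since tamoxifen differed between the stages in them too. Their parts cannot be told apart from that of age. Between E15.5 and P5, 9 of the 10 genes rose in wt and Smad7 did not pass, with a median log2 fold change of 1.83 against 0.09 for all genes, in a comparison in which 36.2% of 17159 tested genes were called higher. Such contrasts with all genes only describe, since the 10 genes were chosen with earlier results of these data known. Here and below a call means an adjusted p under 0.05 in the edgeR quasi-likelihood test, adjusted over all tested genes. The directions hold for TMM and DESeq2 scaling. When libraries were instead scaled to the sum of the 13 endothelial identity genes, where the median log2 fold change of all genes dropped by 1.54, Tmem100 (1.36), Eng (0.29) and Acvrl1 (0.26) were still called higher, Smad1 (-1.07), Smad7 (-1.57) and Atoh8 (-0.60) were called lower, and Bmpr2 turned to -0.26 without a call. Smad6 (0.42, adjusted p = 0.06), Bmp4 (0.38, 0.23) and Id1 (0.23, 0.34) lost their calls. With the mean log level of the 12 endothelial genes other than Slc2a1 as the scale, Eng (0.19, adjusted p = 0.099) and Acvrl1 (0.15, 0.14) lost theirs too. Bmpr2 was called lower on that scale (-0.36, adjusted p = 0.016). Of the 10 genes Tmem100 was the one called higher under both endothelial scalings. Over the same step the summed endothelial markers went from 5186 to 6140 CPM in wt at E15.5 to 16544 to 18264 CPM at P5, and neuron markers from 1547 to 1908 CPM to 227 to 374 CPM. The part of this shift in the CPM values was not tested, and in such bulk samples fewer cells of a type and less RNA per cell cannot be told apart.

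Among the receptors, Acvrl1 (chromosome 15, 101128522 to 101145336, plus strand), the type I receptor ALK1 of endothelium, was at 116, 143 and 128 CPM in wt at E15.5 and at 441, 534 and 423 CPM at P5. The groups did not overlap, and the log2 fold change was 1.85 ± 0.11 (SE, adjusted p = 4.7e-12). Acvrl1 went on to 476 ± 10.5 CPM at P9 and 571 ± 19.7 CPM in adults (SD, n = 3). Its last step passed narrowly (0.26 ± 0.11, adjusted p = 0.045) and no longer did without any single wt library of P9 or adult (adjusted p = 0.059 to 0.11), with a replicate block (0.052) or without the low-count filter (0.081).

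Eng (chromosome 2, 32646595 to 32682669, plus strand), the coreceptor endoglin, followed a different course. It rose from 744 ± 90.8 CPM at E15.5 to 2745 ± 373 CPM at P5 (1.88 ± 0.14, adjusted p = 7.8e-11), was at 3057 ± 239 CPM at P9, and at 1881, 1810 and 1805 CPM in adults. All adult libraries lay below all P9 libraries, and the step between them was -0.74 ± 0.14 (adjusted p = 5.9e-05). Bmpr2 (chromosome 1, 59763400 to 59879014, plus strand), the type II receptor, rose from 81.9 ± 11 CPM at E15.5 to 207 ± 26 CPM at P5 (1.34 ± 0.12, adjusted p = 2e-09). This rise changed sign under both endothelial scalings (-0.26, adjusted p = 0.082, and -0.36, adjusted p = 0.016). No step of Bmpr2 between P5, P9 (217 ± 10 CPM) and adult (192 ± 16.2 CPM) passed, save that from P9 to adult in a fit of those 6 libraries alone (-0.18, adjusted p = 0.031).

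Smad1 (chromosome 8, 79338395 to 79399518, minus strand), the receptor Smad of BMP signals, was the gene with its lowest wt level in adults. Its wt values were 56.9, 65.3 and 81 CPM at E15.5, 82.5 to 113 CPM at P5, 117 to 122 CPM at P9 and 45.9 to 49.5 CPM in adults. The adult libraries were below the libraries of each other stage. From P9 to adult, Smad1 fell by 1.32 ± 0.14 on the log2 scale (adjusted p = 1.5e-08), and the adult level was 39.9% of that at P9.

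For the inhibitory Smads the calls between neighbouring stages fell on different steps up to P9. Both were called higher from P9 to adult, Smad7 by 0.74 ± 0.17 (adjusted p = 0.00052). Smad7 (chromosome 18, 75367529 to 75395935, plus strand), which blocks both BMP and TGF-beta receptors, was at 34.6 ± 3.77 CPM at E15.5 and 34.8 ± 10.1 CPM at P5 (0.01 ± 0.17), then reached 73.1, 79.7 and 59.8 CPM at P9 and 131, 116 and 109 CPM in adults. It was the only one of the 10 genes called between P5 and P9 (1.02 ± 0.17, adjusted p = 0.00087), where 5.12% of tested genes were called. Smad6 (chromosome 9, 63953076 to 64022059, minus strand), which acts mainly on BMP signals, was called higher by P5, from 6.67, 8.7 and 10.8 CPM to 36.4, 32.1 and 37.1 CPM (1.99 ± 0.21, adjusted p = 1.9e-08). That call was lost under both endothelial scalings (0.42, adjusted p = 0.06, and 0.33, adjusted p = 0.14). Its next levels were 28.8 ± 1.72 CPM at P9 and 45.6 ± 3.57 CPM in adults, and the step from P9 to adult passed (0.66 ± 0.20, adjusted p = 0.0057).

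Of the target genes, Id1 (chromosome 2, 152736251 to 152737410, plus strand), an inhibitor of basic helix-loop-helix factors and the classical early BMP target, had a mean of 41.8 ± 10.8 CPM in wt at E15.5, 147 ± 33.4 CPM at P5, 210 ± 12.8 CPM at P9 and 290 ± 25.7 CPM in adults. The neighbours P5 and P9 (adjusted p = 0.25) and P9 and adult (0.1) did not pass, while P5 against adult did (0.97 ± 0.25, adjusted p = 0.0016). The step from P9 to adult was called under both endothelial scalings (0.84, adjusted p = 0.0029, and 0.89, adjusted p = 0.0024), and both steps were called without the low-count filter and in fits of the 6 compared libraries. Atoh8 (chromosome 6, 72206177 to 72235577, minus strand), a basic helix-loop-helix factor induced by Acvrl1 signals, was at 3.74 ± 0.647 and 3.34 ± 0.233 CPM at P5 and P9 and reached 10.6, 7.4 and 8.26 CPM in adults (adult against P9, 1.36 ± 0.21, adjusted p = 6.4e-06). Tmem100 (chromosome 11, 90030348 to 90036508, plus strand), a transmembrane protein gene induced by BMP through Acvrl1, had the largest step of the 10 between E15.5 and P5, from 3.52, 4.77 and 2.71 CPM to 26.1, 27.4 and 31.6 CPM (2.91 ± 0.24, adjusted p = 3.2e-10). The ligand gene Bmp4 (chromosome 14, 46383520 to 46390669, minus strand) was at 3.66, 3.99 and 1.12 CPM at E15.5, the lowest value being that of wt library 3, and at 10.1 ± 0.887 to 14.6 ± 1.84 CPM at the later stages. The step of Bmp4 from P9 to adult was not called, but was with a replicate block (-0.53, adjusted p = 0.036), without the low-count filter (-0.52, 0.025) and in a fit of the 6 libraries (-0.53, 0.003).

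From P9 to adult, 6 of the 10 genes were called in wt, Smad6, Smad7, Atoh8 and Acvrl1 higher and Smad1 and Eng lower, where 61.1% of tested genes were called. Endothelial identity genes summed to 17667 to 18200 CPM in wt at P9 and 13495 to 14426 CPM in adults. Oligodendrocyte-lineage markers summed to 802 to 1367 and 16855 to 20775 CPM, pericyte markers to 2746 to 3776 and 480 to 592 CPM. Stress genes summed to 4257 to 6457 and 1062 to 1266 CPM, cell cycle genes to 1079 to 1139 and 135 to 156 CPM. Other lists moved in both directions, and the part of these shifts in the calls was not tested. Set against E15.5, all 10 genes were higher at P9 (38.1% of tested genes) and 9 in adults (35.2%), with Smad1 the exception. The dissociation kit differed in these comparisons, as it did between adult and P5. Under the scaling to endothelial identity genes, Smad1 (-0.84), Smad7 (-0.63), Atoh8 (-0.82) and Bmpr2 (-0.26) turned lower at P9 against E15.5 and Smad6 lost its call (0.06, adjusted p = 0.79). In adults against E15.5 the same scaling ended the calls of Eng (0.01, adjusted p = 0.95), Bmpr2 (-0.07, 0.66) and Bmp4 (0.50, 0.12). Under the mean log level Bmp4 (0.53, adjusted p = 0.089) and Acvrl1 (0.10, 0.34) also lost their calls at P9 against E15.5. Bmpr2, not called there under the sum (adjusted p = 0.084), was called lower under the mean log level (-0.38, adjusted p = 0.011). Between adult and P5, 7 were called (62% of tested genes), Smad7, Id1, Atoh8 and Acvrl1 higher and Smad1, Tmem100 and Eng lower. The call of Tmem100 was lost without P5 wt library 3 (adjusted p = 0.066) or adult wt library 1 (0.083) and under both endothelial scalings (-0.30, adjusted p = 0.19, and -0.28, adjusted p = 0.27), and that of Acvrl1 without P5 library 1 or 3 or adult library 1 or 3 (0.063 to 0.12).

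Loss of Sox17 at E15.5 came with a higher Smad6 and no other call among the 10 genes. Smad6 was at 6.67, 8.7 and 10.8 CPM in wt and at 25.5, 18.6 and 18.3 CPM in KO libraries. The groups did not overlap, and the KO mean was 2.39 times that of wt (log2 1.23 ± 0.21, adjusted p = 0.0025). The 1 call of 10 compares with 0.548% of tested genes called at this stage. Smad6 kept its call under both endothelial scalings, without any single library (adjusted p = 0.0035 to 0.038) and without both libraries numbered 3 (1.50, adjusted p = 0.0057), but not in a fit of the 6 E15.5 libraries alone (1.23, adjusted p = 0.11).

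The start of Smad6 is shown because it was the 1 gene called at this stage and its RefSeq window holds both a SOX core motif and a palindromic Smad box. The stretch is chr9:64022050-64022159 of GRCm38.p6 (the assembly of mm10), read on the minus strand, with 100 bases before the annotated start and 10 after it, and the capitals mark ACAAT and GTCTAGAC.
Smad6 start: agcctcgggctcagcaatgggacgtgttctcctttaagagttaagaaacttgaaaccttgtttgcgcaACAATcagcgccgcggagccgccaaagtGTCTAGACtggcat
RefSeq windows of 300 bases (250 before and 50 after a start) were held for 6 of the 10 genes, namely Smad1, Smad6, Bmp4, Atoh8, Eng and Bmpr2. Both strands were searched for 8 motifs. GTCTAGAC, the palindromic Smad box, was found in the Smad6 window and in 0.213% of 32851 windows, and ACAAT, the SOX core, in the Smad6 window and in 31% of all windows. ACAATGG was in none of the 6 windows (3.66% of all), nor was CAGACA (21%), which overlaps GTCTG read on the other strand. GTCTG was in the Eng window (49.6%), GGCGCC in that of Bmpr2 (11.9%), GGCGGC in those of Smad6, Atoh8 and Bmpr2 (23.4%), and CACGTG in those of Bmp4 and Atoh8 (7.15%). These matches describe the letters only, since no binding was measured.

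None of the other 9 changes at E15.5 passed. Bmpr2 was at 71.2, 81.5 and 93.1 CPM in wt and at 101, 96.8 and 126 CPM in KO libraries. The groups did not overlap, yet the change of 0.39 ± 0.12 did not pass (adjusted p = 0.29). Smad7 also had separate groups (30.3 to 37.2 CPM against 37.8 to 46.7 CPM) with 0.32 ± 0.17 (adjusted p = 1), where 4.99% of tested genes were higher in KO without overlap. Id1 was at 46.5, 49.4 and 29.4 CPM in wt and at 94.9, 65.7 and 35.7 CPM in KO libraries, the library numbered 3 being the lowest of each genotype, and its 0.65 ± 0.25 did not pass (adjusted p = 0.69, and 0.32 without both libraries numbered 3). Those libraries were also lowest for Bmp4, at 1.12 and 1.29 CPM, as they were for the pericyte and choroid plexus markers given above, whose part in these values was not tested. Red cell markers, 2570 to 3460 CPM in wt and 525 to 822 CPM in KO, separated the genotypes at this stage as well (5 of 6 lower). So did the sums of venous genes (704 to 922 CPM in wt and 972 to 1235 CPM in KO, 1 of 6 higher), cell cycle genes (636 to 781 and 791 to 878 CPM, 0 of 12 called) and lymphatic and peripheral endothelial genes (277 to 293 and 299 to 348 CPM, 0 of 4 tested called), which were higher in KO as Smad6 was. Their part in the Smad6 value was not tested.

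At P5 the call belonged to Tmem100. The gene was at 26.1, 27.4 and 31.6 CPM in wt and at 9.1, 13.7 and 11.1 CPM in KO libraries, each KO library lying below each wt library. Tmem100 fell by 1.32 ± 0.22 on the log2 scale (adjusted p = 0.0022), to 39.8% of wt, and kept its call without any single library (adjusted p = 0.0032 to 0.033) and under all other settings tried. This was 1 of 10 genes, where 0.53% of tested genes were called. Arterial genes also separated the genotypes at P5, with sums of 990 to 1127 CPM in wt and 760 to 862 CPM in KO (3 of 10 lower), as did the sums of fibroblast markers (573 to 630 and 476 to 510 CPM) and neural progenitor markers (618 to 762 and 585 to 591 CPM), without a called gene in either. Their part in the Tmem100 value was not tested. No other of the 10 genes separated the genotypes: the remaining log2 fold changes ran from -0.20 ± 0.25 for Id1 to 0.25 ± 0.13 for Smad1, and those of Acvrl1 (-0.02 ± 0.11), Eng (0.06 ± 0.14) and Bmpr2 (0.09 ± 0.12) were near 0. The direction of Smad6, higher in KO at E15.5, was not seen at P5 (-0.14 ± 0.19, adjusted p = 0.9).

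**Figure D2:**
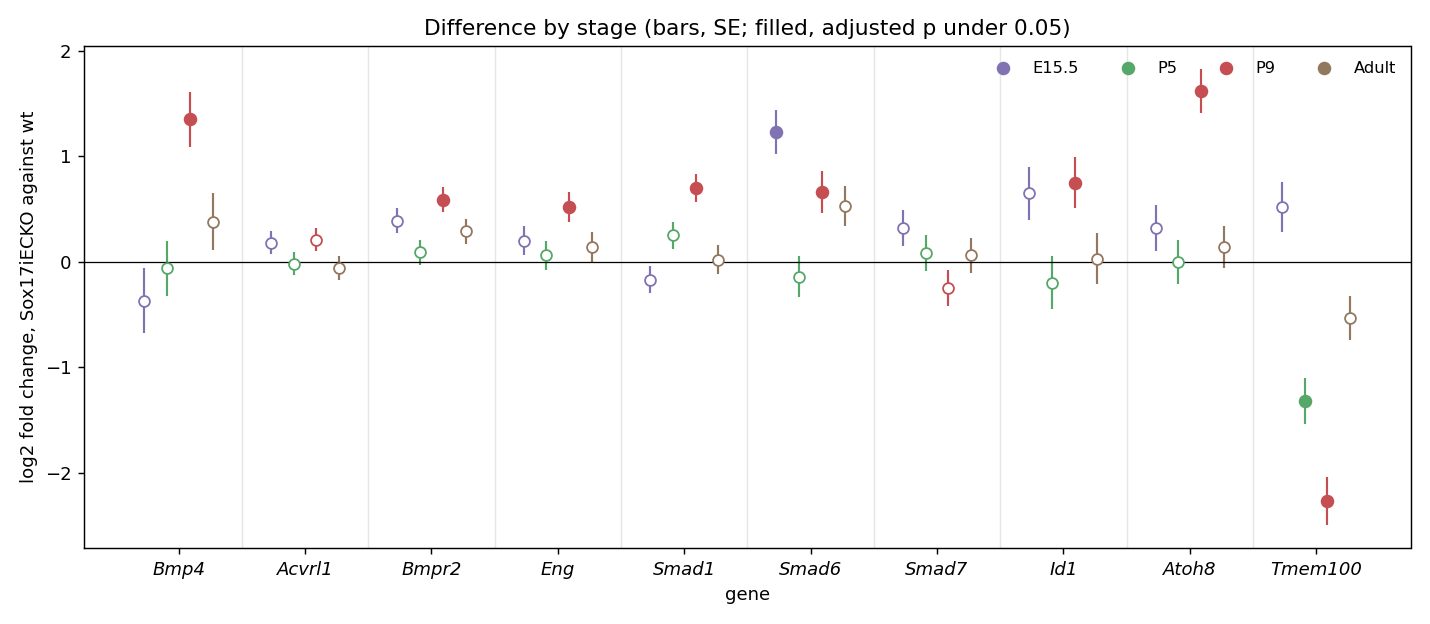
Log2 fold change of KO against wt (vertical axis) for each gene at the 4 stages, with the standard error as a bar and filled symbols for an adjusted p under 0.05. The calls are Smad6 at E15.5, Tmem100 at P5 and 8 genes at P9, where Atoh8 is highest at 1.62 and Tmem100 lowest at -2.27, and no adult symbol is filled.

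P9 was the stage with most calls: 7 of the 10 genes were higher in KO (Bmp4, Bmpr2, Eng, Smad1, Smad6, Id1 and Atoh8), Tmem100 was lower, and Smad7 and Acvrl1 were not called. At this stage 28% of tested genes were called, 13.5% higher and 14.6% lower. The median log2 fold change of the 10 genes was 0.62, against 0.02 for all genes. The 10 were chosen with earlier results of these data known, so these contrasts with all genes only describe. The calls of Smad1, Smad6, Id1, Eng and Bmpr2 depend on the scaling. When libraries were scaled to the sum of the endothelial identity genes, where the median of all genes dropped by 0.45, their changes were 0.03 to 0.25 with adjusted p of 0.2 to 0.83, while Bmp4 (0.86), Atoh8 (1.12) and Tmem100 (-2.73) kept direction and call. That sum contains Slc2a1, the glucose transporter of brain endothelium, and was itself 22720 to 27944 CPM in KO and 17667 to 18200 CPM in wt. Scaled to the mean log level of the 12 other endothelial genes, Smad1 (0.46), Eng (0.29) and Bmpr2 (0.36) were called and Smad6 (0.46, adjusted p = 0.085) and Id1 (0.52, adjusted p = 0.1) were not.

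Bmp4, the ligand, was at 16.7, 13.7 and 13.4 CPM in wt and at 40.1, 40.6 and 31.6 CPM in KO libraries at P9. The lowest KO value lay above the highest wt value, and the mean was 2.56 times that of wt (1.35 ± 0.26, adjusted p = 0.00034). The KO mean of 37.4 ± 5.06 CPM was the highest of any group for this gene (other groups, 2.22 to 14.6 CPM).

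The receptors moved by less. Bmpr2 was at 207, 216 and 227 CPM in wt and at 301, 340 and 336 CPM in KO libraries, with no overlap and a log2 fold change of 0.59 ± 0.12 (adjusted p = 0.00064). Eng was at 3284, 3080 and 2807 CPM in wt and at 4247, 4885 and 4042 CPM in KO libraries (0.52 ± 0.14, adjusted p = 0.0053), also without overlap. Acvrl1, the third subunit of the same receptor complex, was at 467 to 488 CPM in wt and 541 to 570 CPM in KO libraries. Its groups did not overlap, as held for 40.7% of tested genes at this stage, but the change of 0.21 ± 0.11 did not pass (adjusted p = 0.16). Acvrl1 was called higher by DESeq2 (0.27, adjusted p = 0.049), was called lower when scaled to the sum of endothelial identity genes (-0.26, adjusted p = 0.029), and was at -0.01 (adjusted p = 0.95) when scaled to their mean log level.

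Smad1 was at 122, 120 and 117 CPM in wt and at 220, 209 and 156 CPM in KO libraries, of which library 3 was the lowest and still above wt. The change was 0.70 ± 0.13 (adjusted p = 0.00032). Smad6 was at 27, 30.3 and 29.1 CPM in wt and at 34.8, 42.6 and 59.5 CPM in KO libraries (0.66 ± 0.20, adjusted p = 0.013), and was not called without wt library 1 (adjusted p = 0.055) or KO library 3 (0.42, adjusted p = 0.12). Smad7 was at 59.8 to 79.7 CPM in wt and 55.3 to 63.4 CPM in KO libraries, with a change of -0.25 ± 0.17 that was not called (adjusted p = 0.28). Scaled to the sum of endothelial identity genes it was called lower (-0.73, adjusted p = 0.0031), as it was when scaled to their mean log level (-0.47, adjusted p = 0.048).

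Among the targets, Atoh8 had the largest rise. It was at 3.6, 3.28 and 3.14 CPM in wt and at 11.9, 12 and 7.77 CPM in KO libraries, without overlap, and the KO mean was 3.16 times that of wt (1.62 ± 0.21, adjusted p = 2.7e-06). That KO mean of 10.6 ± 2.42 CPM at P9 lay beside the wt adult mean of 8.76 ± 1.68 CPM. The endothelial identity sums of these 2 groups were 22720 to 27944 and 13495 to 14426 CPM. Id1 was at 200, 224 and 205 CPM in wt and at 330, 434 and 296 CPM in KO libraries (0.75 ± 0.24, adjusted p = 0.024), and lost its call without wt library 1 (adjusted p = 0.077), wt library 3 (0.068) or KO library 2 (0.11) and in limma-trend (0.73, adjusted p = 0.053). Tmem100 moved the other way, from 19.8, 26.4 and 29 CPM in wt to 3.7, 6.2 and 5.24 CPM in KO libraries. All KO values lay far below wt, and Tmem100 fell by 2.27 ± 0.23 on the log2 scale (adjusted p = 6.9e-08), to 20.1% of wt. Its KO level at P9 (5.05 ± 1.26 CPM) lay within the range of the E15.5 groups, 2.71 to 7.09 CPM. This likeness holds for CPM alone. Endothelial identity genes summed to 22720 to 27944 CPM in KO at P9 and to 5186 to 6585 CPM at E15.5.

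Several marker lists moved with genotype at P9. Pericyte markers summed to 2746 to 3776 CPM in wt and 716 to 1770 CPM in KO (5 of 8 lower), smooth muscle markers to 124 to 170 and 53.5 to 109 CPM (4 of 6 tested lower), and fibroblast markers to 333 to 440 and 197 to 284 CPM (5 of 6 tested lower, 1 higher). Dissociation and stress genes summed to 4257 to 6457 CPM in wt and 9487 to 11982 CPM in KO, all 14 being higher, and all 12 cell cycle genes were lower, with sums of 1079 to 1139 and 308 to 372 CPM. Arterial genes summed to 1029 to 1068 CPM in wt and 810 to 939 CPM in KO (7 of 10 lower, 1 higher), and venous genes to 2467 to 2714 and 3454 to 3697 CPM (3 of 6 higher, 1 lower). Astrocyte markers were higher, at 541 to 620 CPM in wt and 848 to 1269 CPM in KO (5 of 7 higher). Lower sums without overlap were also those of neural progenitors (748 to 792 and 442 to 525 CPM, 1 of 7 lower), microglia and macrophages (54.6 to 63.4 and 40.4 to 44 CPM, 1 of 8 lower and 1 higher), red cells (1544 to 1760 and 1250 to 1497 CPM, 0 of 6 called) and lymphatic and peripheral endothelium (604 to 633 and 277 to 376 CPM, although 2 of 4 tested genes were higher and 1 lower). No marker of these lists was at 0 in either group. The part of these shifts in the values of the 10 genes was not tested.

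**Figure D3:**
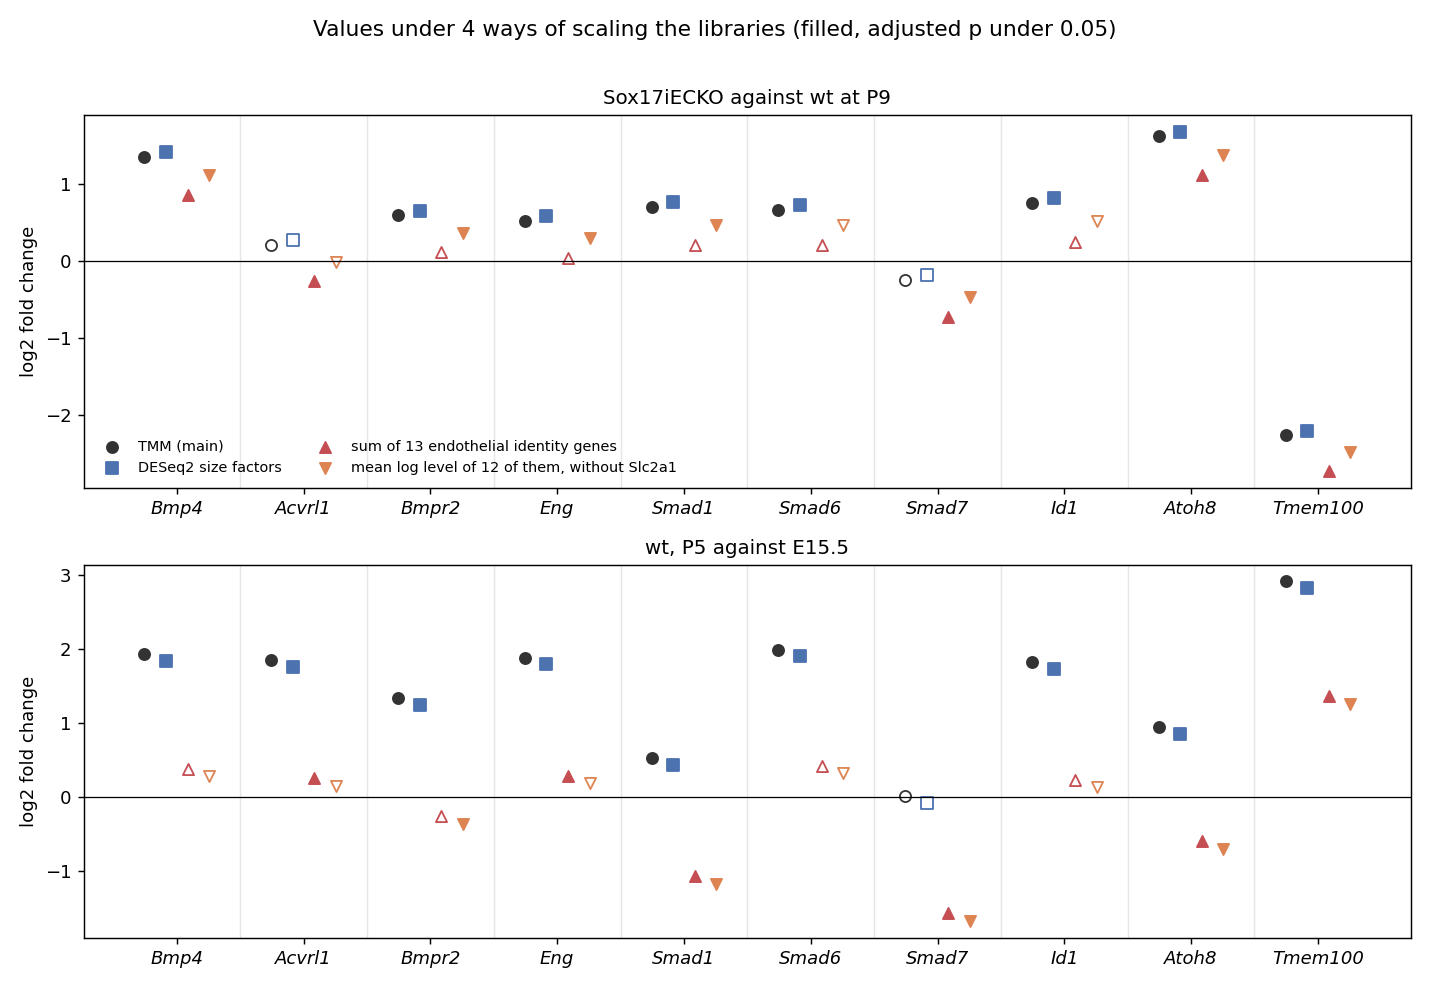
Log2 fold changes (vertical axes) of the 10 genes under 4 ways of scaling the libraries, for KO against wt at P9 (upper) and wt P5 against E15.5 (lower), filled where the adjusted p is under 0.05. At P9 Bmp4 and Atoh8 stay above 0 and Tmem100 below 0 under all 4, and Acvrl1 turns from 0.21 to -0.26 with the endothelial sum. Between P5 and E15.5 Smad1, Atoh8 and Bmpr2 lie above 0 with TMM and DESeq2 size factors and below 0 under both endothelial scalings.

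In adults none of the 10 genes was called by edgeR, and the same held for DESeq2 and limma. At an unadjusted p under 0.05 there were 3 (Smad6, Tmem100 and Bmpr2), and 604 of 17159 over all tested genes, of which 0.0874% were called after adjustment. Tmem100 was at 18.6 ± 2.86 CPM in wt (SD, n = 3) and at 12.4, 13.7 and 12.5 CPM in KO libraries. The groups did not overlap, KO being lower as for 5.79% of tested genes, but -0.53 ± 0.21 did not pass (adjusted p = 1). Arterial genes summed to 619 to 657 CPM in wt and 426 to 438 CPM in KO (2 of 10 lower) and red cell markers to 1283 to 1484 and 914 to 1053 CPM (0 of 6 called), and their part in these values was not tested. Smad6 was at 42.2, 45.1 and 49.3 CPM in wt and at 73.4, 75.8 and 47.8 CPM in KO libraries, library 3 falling inside the wt range (0.53 ± 0.19, adjusted p = 1). KO library 3, with 78.2 CPM of Sox17 against 57.3 and 22.5 CPM in libraries 1 and 2, had the highest Sox17 level of any KO library. A link between the levels of Sox17 and Smad6 in these libraries was not tested.

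Whether the effect of the deletion differed between stages was tested directly. Tamoxifen schedule, time since tamoxifen and dissociation kit differ among the stages, so their parts cannot be told apart from that of age. Sox17 itself passed the interaction test (adjusted p = 0.012, and up to 0.05 without 1 library), so the depth of its loss differed too. Of the 10 genes, 5 passed this interaction (13.5% of tested genes did): Tmem100 (adjusted p = 1.1e-05), Atoh8 (0.001), Smad6 (0.01), Smad1 (0.011) and Bmp4 (0.013). Tmem100 ran from 0.52 ± 0.24 at E15.5 through -1.32 ± 0.22 at P5 and -2.27 ± 0.23 at P9 to -0.53 ± 0.21 in adults. Smad6 ran from 1.23 ± 0.21 through -0.14 ± 0.19 and 0.66 ± 0.20 to 0.53 ± 0.19. Without the P9 libraries only Tmem100 passed (adjusted p = 0.032), while Smad6 was at 0.085 and Smad1, Bmp4 and Atoh8 at 1. Scaled to the endothelial sum, Smad1 (adjusted p = 0.25) and Bmp4 (0.062) did not pass. Smad1 also missed the threshold under the mean log level (0.054) and without P9 KO library 1 (0.051), and Bmp4 in limma-trend (0.057). Eng (0.33), Bmpr2 (0.21), Acvrl1 (0.49), Smad7 (0.39) and Id1 (0.14) did not pass, so that for Eng and Bmpr2 the call at P9 is not shown to differ from the other stages. For Id1 this depended on the setting: its interaction passed in DESeq2 (0.049), without the low-count filter (4e-08), with a replicate block (0.033), without E15.5 KO library 3 (0.014) and without both E15.5 libraries numbered 3 (0.015), but not in limma-trend (0.28) or under the endothelial scalings (0.21 and 0.23). Smad7 passed under the endothelial sum (0.022).

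The wider pathway was described with 8 lists of 86 genes, 76 of them outside the 10. Of these, 73 were tested, and Bmp10, Gdf2 and Sost had too few counts. At P5 the only call was Gdf15, a distant stress-induced ligand of the family, from 0.7 ± 0.398 to 5.11 ± 2.06 CPM (2.68 ± 0.55, adjusted p = 0.02), which was lost in 5 of the 6 fits that leave out 1 library. None of the 73 was called in adults by edgeR, DESeq2 or limma, with 7 at an unadjusted p under 0.05.

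At P9 29 of the 73 were called, 16 higher and 13 lower, with a median log2 fold change of 0.19 against 0.02 for all genes, and with 28% of all tested genes called. Without wt library 1 the count was 18, and without wt library 3 it was 19. The lists too were chosen with earlier results of these data known. Of the ligands, Bmp2 and Bmp7 rose and Bmp5, Tgfb2 and Tgfb3 fell (5 of 12 tested). Tgfb3 went from 10.4 ± 0.786 to 6.3 ± 1.12 CPM (-0.72 ± 0.16, adjusted p = 0.0017) and Tgfb2 from 80.5 ± 3.29 to 58.6 ± 5.1 CPM (-0.45 ± 0.11, adjusted p = 0.0024). Of 10 other receptors, Acvr2a (0.84 ± 0.15) and Bmpr1b (0.94 ± 0.28) rose and Tgfbr2 fell, and of 5 other receptor and common Smads only Smad4, the common partner, rose (0.41 ± 0.10). Smurf1, a ubiquitin ligase that targets Smads and receptors, was the 1 of 5 inhibitory genes called (0.28 ± 0.08). Under the scaling to the endothelial sum Acvr2a and Bmpr1b were not called, and Smad4 (-0.07) and Smurf1 (-0.19) changed sign without a call. Under the mean log level Smad4 (0.18, adjusted p = 0.26), Smurf1 (0.06, 0.74) and Bmpr1b (0.71, 0.07) were not called either. In fits of the 6 compared libraries Bmpr1b (adjusted p = 0.1) and Smurf1 (0.085) lost their calls, as did Smurf1 without the low-count filter (0.096). Bmpr1b, whose groups overlapped, was also not called without wt library 1 (adjusted p = 0.095) or KO library 1 (0.089), nor Smurf1 without wt library 1 (0.066) or KO library 3 (0.058).

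Of 14 tested antagonists and modulators, Chrd and Twsg1 rose and Chrdl1, Fstl1 and Dcn fell. Dcn, which encodes the matrix proteoglycan decorin that binds TGF-beta and is also one of the fibroblast markers, went from 10.4 ± 1.38 to 3.99 ± 1.12 CPM (-1.37 ± 0.33, adjusted p = 0.0031), and Fstl1 from 184 ± 31.2 to 126 ± 23.3 CPM (-0.55 ± 0.18, adjusted p = 0.024, not called without wt library 1 or KO library 1). Among 8 genes of latent TGF-beta, Ltbp2 rose and Ltbp1 (-0.82 ± 0.20) and Ltbp4 (-0.63 ± 0.20) fell. Ltbp1 and Ltbp4 encode binding proteins that hold the inactive cytokine in the matrix. Ltbp4 had overlapping groups and lost its call without any 1 of 4 libraries, wt 2 and 3 and KO 1 and 2 (adjusted p = 0.05 to 0.099).

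The other BMP targets were 3 higher (Gata2, Id3 and Id4), 1 lower (Msx1) and 4 not called of 8. Gata2, a transcription factor of endothelial and blood cells, went from 98.5 ± 9.47 to 260 ± 21.1 CPM (1.40 ± 0.10, adjusted p = 3e-10), and Msx1 from 18.2 ± 1.57 to 9.25 ± 2.81 CPM (-0.97 ± 0.28, adjusted p = 0.012, and 0.064 without KO library 3). Of 13 TGF-beta targets, 5 rose, Ctgf, Cyr61, Ltbp2 and Fn1 among them, and 3 fell (Pmepa1, Col1a1 and Snai2). Ctgf, a matricellular protein gene now named Ccn2, went from 62.5 ± 12.5 to 1497 ± 450 CPM (4.58 ± 0.22, adjusted p = 1.1e-12), and its relative Cyr61 (Ccn1) from 233 ± 41.9 to 782 ± 118 CPM (1.75 ± 0.13, adjusted p = 8.4e-10). Both are also known targets of the Hippo effector YAP. The dissociation and stress genes, whose sums are given above, were higher in the same libraries, and their part in these values was not tested. Col1a1, like Dcn, is a fibroblast marker, and the sums of those markers given above moved the same way, a part that was not tested.

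**Figure D4:**
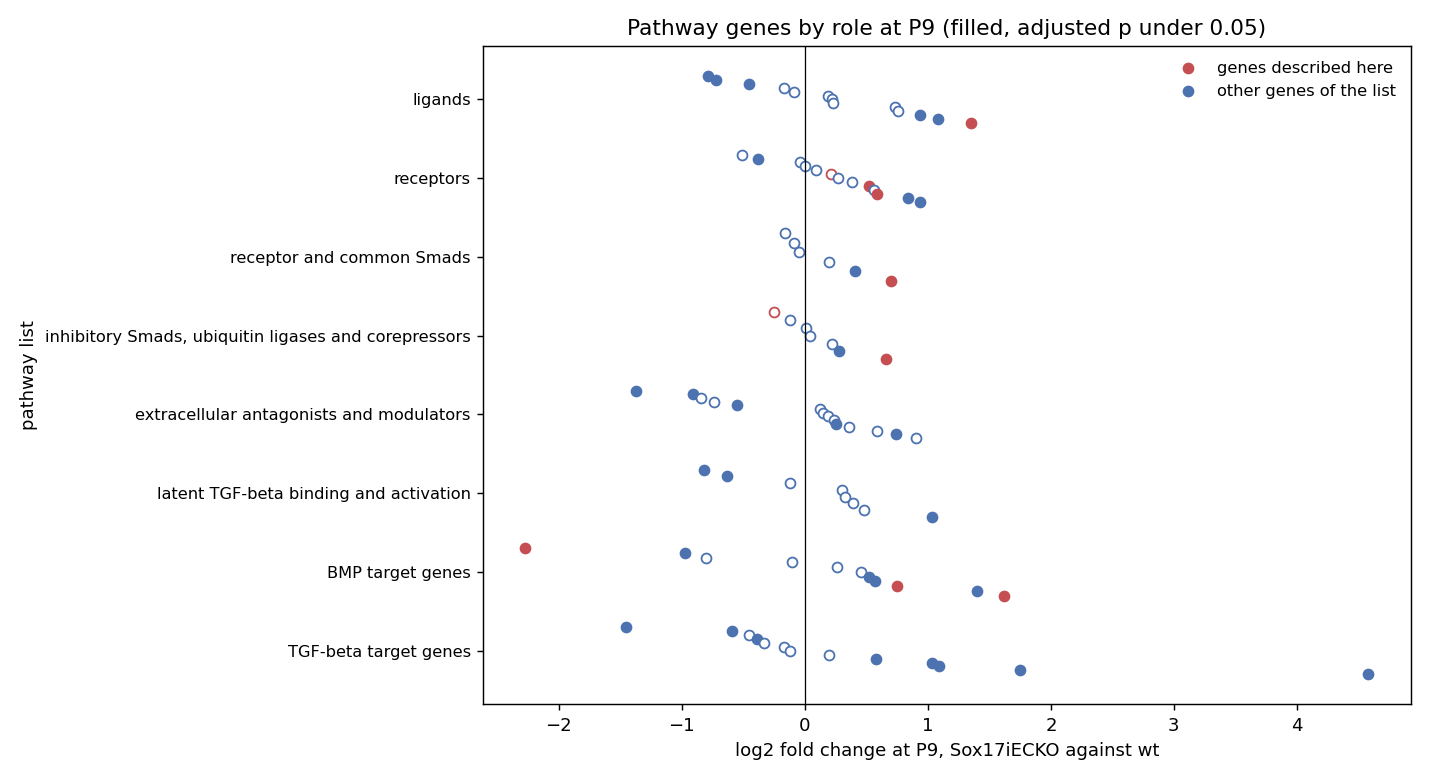
Log2 fold change of KO against wt at P9 (horizontal axis) of the tested genes of the 8 pathway lists, by list (vertical axis; the small vertical steps only separate points), filled where the adjusted p is under 0.05. Each list holds points on both sides of 0, with Ctgf farthest to the right at 4.58 and Tmem100 farthest to the left at -2.27.

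Genes whose course over the 24 libraries lay closest to each of the 10 were sought among 12267 genes, by the root mean square difference (RMS) of log2 CPM centred on each gene's mean, so that a small value means a like course. The libraries share stage and genotype, so the values only describe. Closest to Eng were Grap (0.15), Erg (0.17) and Esam (0.17), where the median over all genes was 0.94, and Erg and Esam are among the endothelial identity genes. Closest to Acvrl1 were Ctdsp1 (0.12), Afap1l1 (0.13) and Tmem204 (0.16), and to Bmpr2 Sptbn1 (0.16), Luzp1 (0.18) and Prkch (0.18). Smad1 was nearest to Rai14, Mmd and Tgif1 (each 0.22), of which Tgif1 encodes a TGF-beta corepressor. Smad7 was nearest to Dusp7 (0.28), and Id1 to Arid5a (0.32), with Gata2, from the list of BMP targets, at 0.36. Atoh8 was nearest to Col4a3bp (0.25), Bmp4 to Dnah6 (0.35) and Smad6 to Helz2 (0.36). The nearest genes of Tmem100 were farther off, namely Vegfc (0.52), Sntb1 (0.53) and Hsf4 (0.56), of which Vegfc is among the arterial genes.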

How the data were processed

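Each deposited table gives raw stranded read counts of 45468 genes on mm10 (the forward column, per the file headers), the authors' FPKM, which divides counts by gene length and library total, and the authors' TPM, scaled by length to a common sum. The scaled columns were checked against the counts and not used. STAR 2.5.3a, SAMtools 1.5, Trim Galore 0.4.1 and FastQC appear in the submitters' processing notes, and the annotation release is not given in the sources used here.

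The test took the 17159 genes whose mean reached 10 counts in any group. Counts were scaled by TMM (factors 0.861 to 1.14), which also gives CPM, and fitted with edgeR 4.0.16 (R 4.3.3) as 8 group means over 24 libraries, with 16 residual degrees of freedom and a prior count of 2. SE is the size of the log2 fold change over the root of F. Tests were two-sided, with Benjamini-Hochberg adjustment over all tested genes. They rest on a spread between libraries of a group that was estimated over all 8 groups together, not over the compared libraries alone. The fit was tested on simulated counts.

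Other settings tried were limma-trend with robust variance (limma 3.58.1), the test of DESeq2 1.42.0 and its size factors within edgeR, no low-count filter, fits of the 6 compared libraries, the interaction without P9, a replicate block, each library left out, and scaling to the summed endothelial identity genes. After seeing the data, scaling to their mean log level without Slc2a1 and a fit without the E15.5 libraries numbered 3 were added. The 10 genes and the lists were chosen with earlier results of these data known. Beside the 10, the rule names up to 2 called genes per list and KO comparison with the smallest adjusted p, and the 3 nearest genes in pattern with a mean of at least 50 counts. Other called list members were named after their values were seen. Ccn1 and Ccn2 were found as Cyr61 and Ctgf by gene identifier. A result on another pathway gene is not reported here.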

Additional observations from a re-analysis of the deposited data

Results flagged for a closer look

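A difference of the deletion's effect between the 4 stages was found for 5 of the 10 genes by the edgeR interaction test. Age cannot be told apart here from tamoxifen schedule, time since tamoxifen and dissociation kit, which differ among the stages. Tmem100 (adjusted p = 1.1e-05) was lower in KO at P5 and P9, with -0.53 ± 0.21 in adults and 0.52 ± 0.24 at E15.5, neither of them called. It was the gene that passed without the P9 libraries as well (adjusted p = 0.032). Atoh8 (adjusted p = 0.001) and Bmp4 (0.013) were called at P9 alone, with all their other stages between -0.37 and 0.38. The interaction of Bmp4 missed the threshold in limma-trend (0.057) and under the scaling to the endothelial sum (0.062). Smad1 (0.011) was likewise called at P9 alone, and its interaction missed the threshold without P9 KO library 1 (0.051) and under both endothelial scalings (0.25 and 0.054). Smad6 (0.01) was called at E15.5 and P9. Groups of 3 libraries were not searched for single outlying libraries.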

How the results depend on the processing

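Of 1740 repeats of the 110 results on the 10 genes (10 genes in 11 comparisons) under other settings, 1640 kept their direction and their side of the threshold, 53 lost a call, 26 gained one and 21 changed sign with a call on at least 1 side. The sign changes all came with the 2 endothelial scalings, which by construction shift all genes together. In wt P5 against E15.5 the values under the sum and the mean log level were -1.07 and -1.17 for Smad1, -1.57 and -1.67 for Smad7, -0.60 and -0.70 for Atoh8, and -0.26 and -0.36 for Bmpr2. In wt P9 against E15.5 they were -0.84 and -0.96 for Smad1, -0.63 and -0.75 for Smad7, -0.82 and -0.94 for Atoh8, -0.26 and -0.38 for Bmpr2, and -0.06 for Smad6 under the mean log level. In wt adult against E15.5 Bmpr2 was at -0.07 and -0.14, and Eng at -0.06 under the mean log level. At P9, under the sum, Acvrl1 was at -0.26 in KO against wt, Smad4 at -0.07 and Smurf1 at -0.19. The sum moved the share of called genes that were higher at P9 from 48.1% to 7.53%, the mean log level to 19.2%, and in wt P5 against E15.5 from 54.4% to 4.31% and 3.69%. For P9 against E15.5 in wt it went from 54.8% to 4.89% and 4.12%, for adult against E15.5 from 50.7% to 13.4% and 12.6%, for adult against P9 from 50.5% to 72.6% and 75.3%, for adult against P5 from 50.4% to 68.3% and 69.7%, and for P9 against P5 from 52.1% to 34.9% and 31.4%. In adult KO against wt, with 15 calls, it went from 33.3% to 61.5% and 50%.

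Counts of the 10 genes called were 5 at P9 under the sum and 5 in wt P5 against E15.5 under the mean log level. Without a low-count filter they were 2 at E15.5 (Id1 joined) and 2 in wt P9 against P5, and in fits of the 6 compared libraries 0 at E15.5, 2 in wt P9 against P5 and 10 in wt adult against P9. The interaction count was 1 without P9. Of the 73 other pathway genes, at E15.5 2 were called under both endothelial scalings, without filter, with DESeq2 and with limma, and 0 with the 6 libraries or without both libraries numbered 3. At P5 5 were called without filter, 3 with DESeq2 and 5 with the 6 libraries. Leaving out 1 library gave 1 of the 10 genes at E15.5 and P5, 6 to 8 at P9 and 4 to 6 for the interaction, and of the other pathway genes 0 at E15.5, 0 to 1 at P5 and 18 to 26 at P9. The count of 18 was without P9 wt library 1 and that of 19 without wt library 3, against 29 in all libraries. The cause of these changes was not tested.

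Same-numbered wt and KO libraries did not deviate together at each stage (r from -0.0812 to 0.486), so the numbers were not taken as pairs. At E15.5 each wt library correlated best with the KO library of its own number, though for number 1 only narrowly. There r was 0.065, 0.368 and 0.486, against at most 0.059, 0.252 and -0.27 for another number. With a replicate block, the number of the 10 genes called was 1 at E15.5 and P5, 8 at P9, 0 in adults and 6 for the interaction, which Id1 joined (adjusted p = 0.033). Acvrl1 lost and Bmp4 gained a call in wt adult against P9 (0.052 and 0.036), and 2 other pathway genes were called at P5. At P5, P9 and in adults, not every library correlated best with its own number.

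At this depth Bmp4 and Atoh8 at E15.5, at 1.12 to 3.99 CPM, rest on few counts. Over all genes, calls at E15.5 numbered 94, with 212 without filter, 148 with DESeq2, 16 with the 6 libraries and 53 without both libraries numbered 3. At P5 they numbered 91, with 322, 162 and 205 in the first 3 of these, in adults 15, with 69, 36 and 40, and in wt P9 against P5 879, with 1579 without filter and 2063 with the 6 libraries.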
